A study of Mus musculus with 6 samples.

Results

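Hypoxia-linked glycolysis was represented by 10 genes, *Slc2a1*, *Hk2*, *Pfkl*, *Aldoa*, *Pgk1*, *Eno1*, *Ldha*, *Pdk1*, *Bnip3* and *Vegfa*, among the 48733 named genes of the RNA-seq tables. Genes were taken by name, FPKM (fragments per kilobase of transcript, scaled to all aligned fragments of the library) were summed by name, and each value is given with the label of its library and with whether the hemoglobin gene *Hbb-bt* was above 1000 FPKM there. Each of the 10 names was carried by 1 feature. The study sequenced RNA from mice of the Collaborative Cross inbred strain CC016/GeniUnc, with 3 libraries labelled bone (cortical femur without its marrow) and 3 labelled osteoblasts. The osteoblasts were grown from marrow stromal cells (BMSCs) for 8 days in medium to which dexamethasone (10 nM), beta-glycerophosphate (10 mM) and ascorbic acid (50 µg/ml) had been added. The labels name no other treatment, no oxygen level, no sex and no age, and the strain is shared by all 6 libraries.

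Cells take up glucose through transporters, phosphorylate it and split it to pyruvate, which either enters the mitochondria or is reduced to lactate. When oxygen is low, the hypoxia-inducible factors (HIFs) are no longer degraded, bind short DNA motifs and raise the transcription of many of these genes. HIF signaling is known to couple blood vessel growth to bone formation, and osteoblasts use much of their glucose through glycolysis. *Slc2a1* encodes the glucose transporter GLUT1, and *Hk2* and *Pfkl* encode a hexokinase and a phosphofructokinase of the upper pathway. *Aldoa*, *Pgk1* and *Eno1* encode aldolase, phosphoglycerate kinase and enolase. *Ldha* encodes the lactate dehydrogenase subunit that favors lactate, and *Pdk1* a kinase that switches off pyruvate dehydrogenase. *Bnip3* encodes a mitochondrial protein of mitophagy, and *Vegfa* the main growth factor of blood vessels.

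The core of the HIF motif is ACGTG or GCGTG. Both were searched on both strands in the 250 bases upstream of each RefSeq start site (GRCm38.p6), where CACGTG holds ACGTG on each strand. All 10 genes matched the promoter table, with 17 windows, and 14 of the 17 held a core, as did 38.6% of all 32851 windows of this length. ACGTG alone was in 8 of the 17 windows, belonging to 7 genes, and in 16.6% of all windows. Windows of the same gene can overlap, so these counts are not of separate sites. Thus 2 *Aldoa* windows share the same ACGTG, and 2 *Eno1* windows share the same GCGTG matches. *Vegfa* held its cores only in a window inside the gene (chr17:46025164-46025413). Its window just upstream of the RefSeq gene (chr17:46032378-46032627) held none. Both cores contain a CpG, and the windows of the 10 genes had a median of 17 CpG against 6 over all windows, so base composition differed as well. A match is a run of letters and no measure of binding. The windows of *Hk2* (chr6:82774455-82774704, minus strand), *Pgk1* (chrX:106186850-106187099, plus strand), *Ldha* (chr7:46845554-46845803, plus strand) and *Bnip3* (chr7:138909507-138909756, minus strand) are shown because each held ACGTG at least 2 times, and that of *Pdk1* (chr2:71872974-71873223, plus strand) because it held no ACGTG and 1 GCGTG. Capitals mark the cores and their reverse complements, each sequence running 5′ to 3′ toward the start site.
Hk2: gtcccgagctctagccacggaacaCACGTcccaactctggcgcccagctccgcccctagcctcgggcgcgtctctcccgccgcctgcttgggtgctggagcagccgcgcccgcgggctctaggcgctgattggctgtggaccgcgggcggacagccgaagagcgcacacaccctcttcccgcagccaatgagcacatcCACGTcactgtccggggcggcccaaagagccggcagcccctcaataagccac
Pgk1: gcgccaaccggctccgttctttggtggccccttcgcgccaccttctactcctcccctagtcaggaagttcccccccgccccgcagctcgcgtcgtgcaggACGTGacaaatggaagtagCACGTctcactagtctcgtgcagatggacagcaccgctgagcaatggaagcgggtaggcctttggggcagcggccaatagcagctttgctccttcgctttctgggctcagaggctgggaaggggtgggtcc
Ldha: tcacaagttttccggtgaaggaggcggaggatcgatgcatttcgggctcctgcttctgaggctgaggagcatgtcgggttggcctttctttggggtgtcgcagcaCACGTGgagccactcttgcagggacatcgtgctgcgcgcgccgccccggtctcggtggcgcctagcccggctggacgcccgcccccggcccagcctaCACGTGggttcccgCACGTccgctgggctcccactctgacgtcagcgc
Bnip3: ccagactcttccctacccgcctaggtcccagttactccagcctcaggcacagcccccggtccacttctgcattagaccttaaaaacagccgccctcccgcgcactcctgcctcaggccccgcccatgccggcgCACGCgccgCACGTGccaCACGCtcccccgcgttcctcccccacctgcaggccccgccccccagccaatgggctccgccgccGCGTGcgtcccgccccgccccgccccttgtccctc
Pdk1: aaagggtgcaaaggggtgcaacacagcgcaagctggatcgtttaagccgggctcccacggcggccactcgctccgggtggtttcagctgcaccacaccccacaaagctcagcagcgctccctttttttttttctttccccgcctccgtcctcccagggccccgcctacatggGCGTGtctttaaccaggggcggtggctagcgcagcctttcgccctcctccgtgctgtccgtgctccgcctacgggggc

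In the *Ldha* window CACGTG began 145 and 48 bases before the start site, and a further core began 34 bases before it. In *Pgk1* the cores began 150 and 131 bases upstream, and in *Hk2* 226 and 52 bases upstream. The *Bnip3* window held 5 matches at 4 places, 1 of which was CACGTG.

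The libraries differed in ways that the labels do not give. *Hbb-bt* was at 3.43 to 7.05 FPKM in bone 1, bone 2 and osteoblasts 1, and at 34268 to 48649.6 FPKM in bone 3, osteoblasts 2 and osteoblasts 3. That feature spans 21200 bases and takes in *Hbb-bs*. The summed FPKM of 7 neutrophil markers was 14246 to 17226 in the latter 3 libraries against 0.43 to 5.51 in the former, with *Elane* listed at 0 in all of the former. For 6 skeletal muscle markers the sums were 348 to 1441 against 0.086 to 1.14, with *Tnnt3*, *Tnnc2* and *Pvalb* at 0 in bone 1, bone 2 and osteoblasts 1. For 6 dividing-cell markers they were 136 to 158 against 15.7 to 35.3. For 6 macrophage markers the order was the other way, at 403 to 533 against 1397 to 2762. The sum of 7 osteoblast markers was 5258 to 8488 in all 6 libraries, with none at 0, and was carried by *Col1a1* and *Col1a2*. Within it, *Ibsp* was at 986 to 1278 FPKM in bone 1, bone 2 and osteoblasts 1 and 43.1 to 91.3 in the other 3, and *Bglap2* at 264 to 513 against 1641 to 1959. The *Bglap2* feature reaches 5763 bases past the RefSeq gene, and *Bglap* carried no feature of its own name. So erythroid, neutrophil and muscle transcripts were high in 2 of the 3 libraries labelled osteoblasts and near 0 in 2 of the 3 labelled bone. These levels go against what the labels would give for marrow-free bone and cultured cells, and a mix-up of labels was not tested. All values keep the deposited labels, and every comparison of osteoblasts with bone holds only as far as those labels do. Depth, read from the ratio of coverage to FPKM, was 2.03 to 3.39 Gb of aligned bases, at which 3 pairs on a 1-kb transcript equal 0.133 to 0.221 FPKM, and every member was above that in every library. Features without a gene name held 71.5% of the FPKM in bone 2 and 65.0% in osteoblasts 1 against 27.4% to 30.7% elsewhere, and the part of this in the FPKM of named genes was not tested. Shares and ratios within a library, which do not depend on its scaling, are therefore given beside the FPKM. Levels in these bulk samples cannot tell fewer cells of a type from less RNA per cell.

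The 10 genes spanned from 2.88 to 454 FPKM, and their order was much the same in every library. *Aldoa* was the highest and *Ldha* the next in each of the 6 libraries. *Aldoa* stood at the 98.6 to 99.1 percentile of the genes with at least 1 FPKM in their library, *Ldha* at 97.3 to 97.9, *Pgk1* at 92.2 to 95.3 and *Eno1* at 91.7 to 95.1. *Pgk1* was the third in bone 1, bone 2 and osteoblasts 1 and *Eno1* in bone 3, osteoblasts 2 and osteoblasts 3, so that the order of this pair changed with *Hbb-bt* above 1000. *Pfkl*, *Hk2*, *Vegfa* and *Bnip3* lay between the 50.0 and the 83.6 percentile and changed places among themselves. *Pdk1* ranged from 24.6 to 58.7 and *Slc2a1* from 35.0 to 43.1, and these were the lowest members in 3 libraries each. FPKM are per length, so these orders compare genes.

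**Figure D1:**
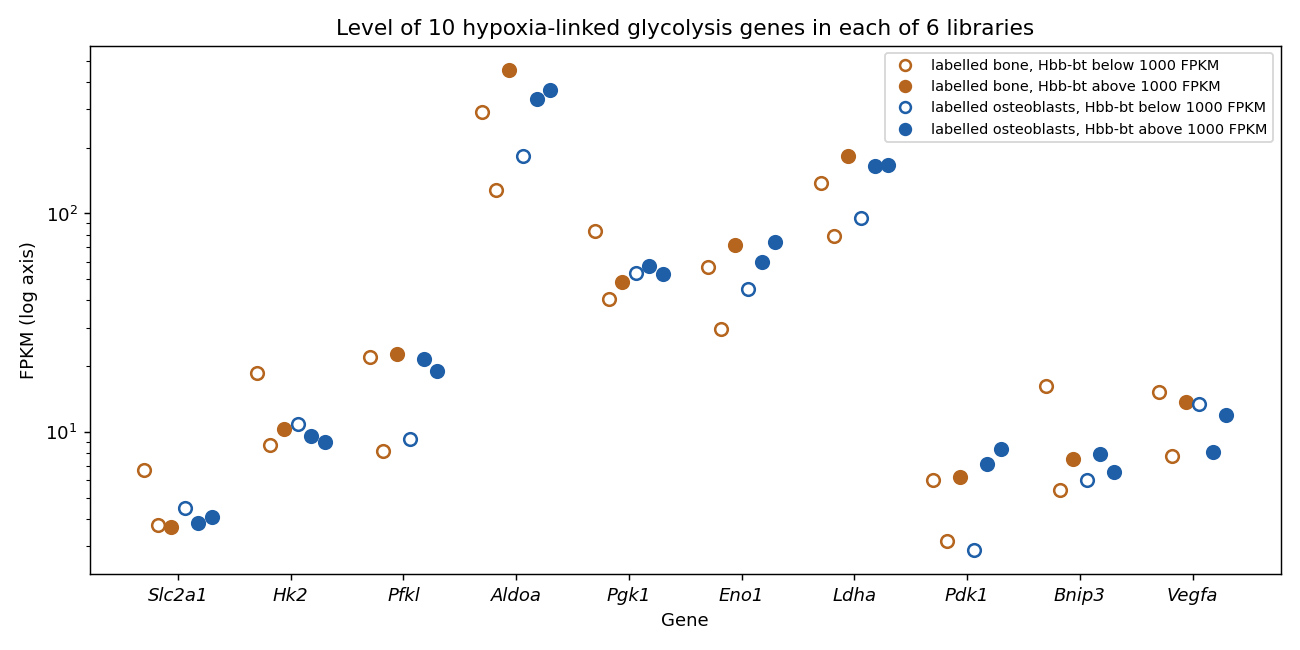
FPKM (log axis) of each of the 10 genes in each of the 6 libraries, coloured by label, filled where *Hbb-bt* was above 1000 FPKM. Bone and osteoblast points overlap for every gene, and *Aldoa*, *Eno1*, *Ldha* and *Pdk1* have their 3 highest points in the filled symbols.

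Of the genes of uptake and early glycolysis, *Slc2a1* (Chr. 4, 119108711 to 119137983) was at 6.71, 3.75 and 3.67 FPKM in bone 1, 2 and 3 and at 4.50, 3.84 and 4.10 in osteoblasts 1, 2 and 3. *Hk2* (Chr. 6, 82725025 to 82774454) was at 18.6, 8.69 and 10.3 FPKM under bone and at 10.9, 9.56 and 9.0 under osteoblasts. Both were highest in bone 1, while the other 5 libraries lay close together. *Pfkl* (Chr. 10, 77986947 to 78010083) followed another order, at 22.1, 8.15 and 22.8 FPKM in bone and 9.33, 21.5 and 19.1 in osteoblasts. It was low only in bone 2 and osteoblasts 1, the libraries with most FPKM on unnamed features.

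Further down the pathway, *Aldoa* (Chr. 7, 126795234 to 126809406) was at 290, 128 and 454 FPKM in bone and at 184, 334 and 367 in osteoblasts. Its feature reaches 8412 bases past the RefSeq gene, with no other RefSeq coding gene inside. *Pgk1* (Chr. X, 106187100 to 106203699) was at 83.0, 40.7 and 48.7 FPKM in bone and 53.6, 57.3 and 53.1 in osteoblasts. The osteoblast values of *Pgk1* lay in a narrow range (SD 2.30, n = 3) inside the wider bone range (SD 22.5, n = 3). *Eno1* (Chr. 4, 150236721 to 150248879) was at 56.6, 29.7 and 71.9 FPKM in bone and 45.3, 60.0 and 74.4 in osteoblasts, with the lowest value in bone 2 and the highest in osteoblasts 3. Both *Eno1* and *Pgk1* have near-identical copies among the named features. *Eno1b* was at 1.18 to 1.66 times *Eno1*, and *Pgk1-rs7* at 0.218 to 0.248 times *Pgk1*. How the reads were divided between a gene and its copy is uncertain, so both levels are uncertain too.

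At the branch between lactate and the mitochondria, *Ldha* (Chr. 7, 46841475 to 46855627) was at 137, 79.2 and 184 FPKM in bone and 95.2, 165 and 166 in osteoblasts. *Pdk1* (Chr. 2, 71873224 to 71903858) was at 6.06, 3.17 and 6.26 FPKM in bone and at 2.88, 7.15 and 8.37 in osteoblasts. For both genes the 3 libraries with *Hbb-bt* above 1000 were the highest, under either label. *Bnip3* (Chr. 7, 138890836 to 138909519) was at 16.2, 5.42 and 7.50 FPKM in bone and 6.05, 7.93 and 6.56 in osteoblasts. Apart from bone 1, its values differed little between libraries. *Vegfa* (Chr. 17, 46016993 to 46032369) was at 15.3, 7.80 and 13.7 FPKM in bone and 13.4, 8.08 and 11.9 in osteoblasts, and its low values were in bone 2 and osteoblasts 2, 1 of each label. Features that overlap the 10 genes, mostly on the other strand or without one, reached at most 1.47 FPKM. The library kit does not mark strand, so reads from antisense partners cannot be told apart.

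No member differed between the labels beyond the spread of the libraries. In limma on log2(FPKM + 1), 0 of the 10 genes and 0.0% of the 12112 genes with a mean of at least 1 FPKM passed the threshold of 0.05 on the adjusted p. Before adjustment 17 of the 12112 were below 0.05. Without bone 3 limma called 77 genes and without osteoblasts 1 it called 300, with no member among them. *Bnip3* had the most negative log2 difference, osteoblasts minus bone, at -0.33 (SE 0.48, 95% interval -1.41 to 0.76). *Hk2* was at -0.26 (SE 0.45). *Eno1* had the most positive at 0.24 (SE 0.53, interval -0.96 to 1.45). The other 7 lay between -0.11 and 0.16. The adjusted p in limma was 0.999 for 9 of the genes and 0.9995 for *Pgk1*, whose difference was -0.01 (interval -1.13 to 1.12). Of the 10 differences 4 were positive and 6 negative, with a median of -0.02 against 0.12 over all genes tested. Each of the 10 intervals reached past 1 or -1 on the log2 scale, so equal levels are not shown. No member had its 3 osteoblast values all above or all below its 3 bone values, an order found in 0.479% (above) and 0.438% (below) of all genes. The methods give 3 mice as the source, without saying which library came from which, and p-values measure only the spread between these libraries.

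**Figure D2:**
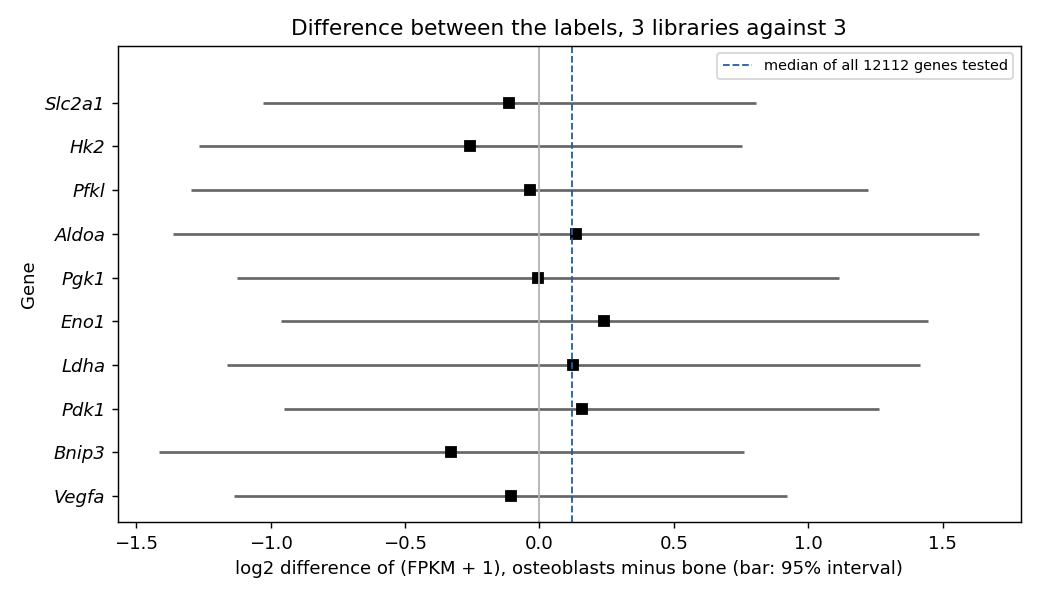
Log2 difference of (FPKM + 1), osteoblasts minus bone, for each gene, with its 95% interval from limma (3 libraries per label). All 10 intervals include 0, and the dashed line is the median of all genes tested, 0.12.

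Ratios within a library compare members without any scaling, and those given here are a selection of the 13 computed. The ratio of *Pgk1* to *Aldoa* was 0.286, 0.318 and 0.107 in bone 1, 2 and 3 and 0.292, 0.172 and 0.145 in osteoblasts 1, 2 and 3. It was highest in bone 1, bone 2 and osteoblasts 1. *Hk2* to *Ldha* was 0.136, 0.110 and 0.0559 in bone and 0.115, 0.0580 and 0.0542 in osteoblasts, with the same 3 libraries highest. By comparison, *Ldha* to *Aldoa* stayed between 0.405 and 0.619. Within the summed FPKM of the 10 genes (315 to 822), *Aldoa* made up 40.7% to 55.2% and *Ldha* 21.1% to 25.2%. *Pgk1* made up 12.7%, 12.9% and 5.92% in bone and 12.6%, 8.50% and 7.37% in osteoblasts.

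On FPKM, 4 of the 10 genes (*Aldoa*, *Eno1*, *Ldha* and *Pdk1*) had their 3 highest values in the libraries with *Hbb-bt* above 1000, a share close to the 38.4% of all genes with that order. The opposite order was found for 0 of the 10 and for 16.9% of all genes. After each library was scaled to its 75th percentile, *Aldoa*, *Ldha* and *Pdk1* had the first order (37.1% of all genes). *Slc2a1*, *Hk2*, *Pgk1* and *Bnip3* then had the opposite one (32.1%). When scaled to the sum of named genes the counts were 0 (21.4%) and 6 (48.6%), and without globins in that sum 0 (23.6%) and 5 (44.2%). A count in either direction thus depends on the scaling, and the shares at the 75th percentile were close to those of all genes, so that neither count is read as a result about the members. *Slc2a1*, scaled to the 75th percentile, was at 5.44, 6.03 and 3.41 in bone and 5.64, 3.40 and 3.60 in osteoblasts, while *Aldoa* was at 235, 206 and 421 and at 230, 295 and 322. Blood, neutrophil, muscle and dividing-cell markers moved with this order and their part in it was not tested. Of the promoters printed above, those of *Hk2*, *Pgk1* and *Bnip3* belong to genes with the opposite order at the 75th percentile. Those of *Ldha* and *Pdk1* belong to genes with the first order. ACGTG on both strands was in promoters of either group (*Pgk1* and *Bnip3*, and *Ldha*), and a link of motif and order was not tested.

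**Figure D3:**
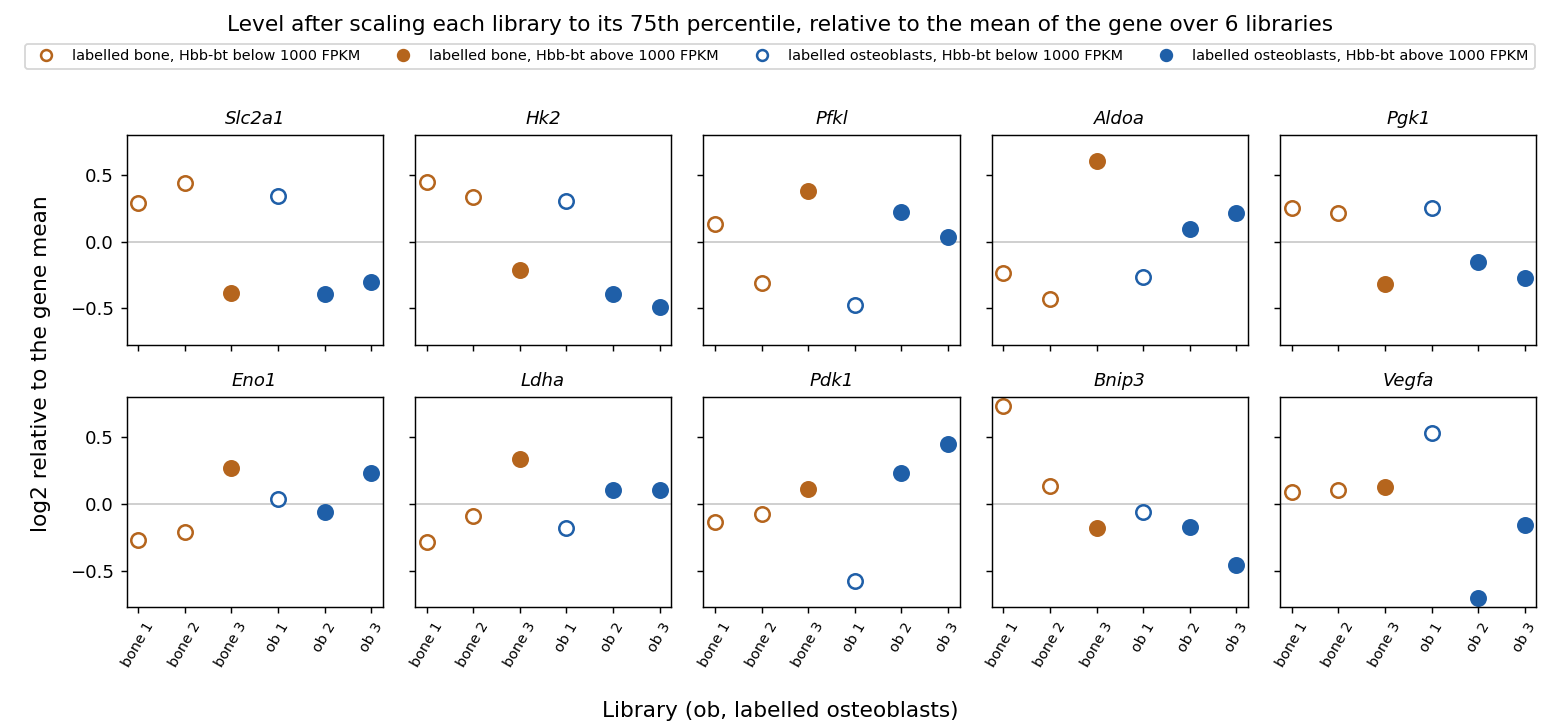
Log2 level of each gene in each library after scaling to the 75th percentile of the library, relative to the mean of the gene over the 6 libraries, with labels by colour and filled symbols for *Hbb-bt* above 1000. *Slc2a1*, *Hk2*, *Pgk1* and *Bnip3* have their 3 lowest points in the filled symbols, and *Aldoa*, *Ldha* and *Pdk1* their 3 highest.

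As a description over the 6 libraries, which share their scaling and differ in unnamed FPKM, Pearson's r of log2(FPKM + 1) was 0.99 between *Aldoa* and *Ldha* and 0.95 between *Slc2a1* and *Hk2*, and 0.90 and 0.94 at the 75th percentile. Between *Slc2a1* and *Aldoa* r was 0.00 on FPKM and -0.90 at the 75th percentile. *Vegfa* was the member least like any other gene. The best match among 4349 genes with a mean of at least 10 FPKM was *Tor1aip1* at r = 0.957, *H1f0* and *Larp1* being next at 0.939 and 0.936. For the other members the best r lay between 0.995 and 0.999, with *Cdk4*, *Akt2* and *Acox3* for *Aldoa* (0.999 each) and *Snx18* for *Slc2a1* (0.998). *Ldha* was nearest to *Prcc* and *Selenow* (0.999 each) and *Pgk1* to *Snx1* (0.997).

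The share of a member in its gene family differed widely between libraries of the same label for the glucose transporters and hexokinases. The SD of the *Pfkl* share was 8.44 percentage points in bone and 3.55 in osteoblasts. For *Pdk1* it was 2.23 and 9.11, and for *Vegfa* 9.60 and 6.70. *Slc2a1* held 40.6%, 49.3% and 5.95% of the FPKM of the glucose transporters *Slc2a1*, *Slc2a3* and *Slc2a4* in bone 1, 2 and 3, and 52.1%, 6.93% and 7.09% in osteoblasts 1, 2 and 3. The share was lowest in the 3 libraries with *Hbb-bt* above 1000. *Slc2a3* (GLUT3) was at 35.0 to 40.3 FPKM there and at 3.51 to 7.28 elsewhere. The insulin-responsive *Slc2a4* (GLUT4), known from muscle and fat, was at 12.7 to 22.9 against 0.208 to 2.53 FPKM. *Slc2a1* itself was at 3.67 to 4.10 FPKM in the former libraries and at 3.75 to 6.71 in the latter.

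*Hk2* held 38.1%, 35.1% and 15.6% of the FPKM of *Hk2* and *Hk3* in bone and 33.5%, 16.3% and 18.6% in osteoblasts. *Hk3*, a hexokinase of myeloid cells, was thus the larger part in every library, at 16.1 to 55.7 FPKM. *Pfkl* held 39.3%, 35.7% and 23.2% of the 3 phosphofructokinases in bone and 30.0%, 30.6% and 24.2% in osteoblasts. The muscle form *Pfkm* held 14.2%, 13.4% and 15.9% in bone 1, bone 2 and osteoblasts 1 and 56.6%, 35.2% and 45.1% in bone 3, osteoblasts 2 and osteoblasts 3. Skeletal muscle marker sums in those last 3 libraries were 1441, 348 and 740 FPKM, the same order as the *Pfkm* share, and their part in it was not tested.

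Among the named aldolases, enolases and lactate dehydrogenases the member shares hardly varied, with *Eno3* not measured and *Eno1b* not counted. *Aldoa* held 99.0% to 99.7% of its family, *Eno1* 95.6% to 98.4% of *Eno1* and *Eno2*, and *Ldha* 90.0% to 95.1% of *Ldha* and *Ldhb*. *Pdk1* held 17.5%, 17.9% and 21.5% of the 4 pyruvate dehydrogenase kinases in bone and 10.3%, 26.0% and 26.2% in osteoblasts. *Pdk4*, the kinase known from fasting and glucocorticoid response, held 35.7%, 38.9% and 6.48% in bone and 49.8%, 8.18% and 6.28% in osteoblasts. In FPKM *Pdk4* was at 12.4, 6.91 and 1.88 in bone and 13.9, 2.25 and 2.01 in osteoblasts, so that the *Pdk1* to *Pdk4* ratio ran from 0.207 to 4.17. *Vegfc* carried no feature of its own name, so the ligand family held only *Vegfa*, *Vegfb*, *Vegfd* and *Pgf*. *Vegfa* was the largest part of these in every library, at 57.4%, 72.9% and 55.4% in bone and 63.9%, 51.3% and 53.6% in osteoblasts. *Vegfb* made up 9.39% to 11.6% of them in bone 1, bone 2 and osteoblasts 1 and 29.3% to 30.7% in the others. Over the 8 families the exact permutation test (two-sided, 3 libraries against 3, smallest possible p 0.1) gave p from 0.2 (*Eno1*, 1.39 percentage points higher in osteoblasts) to 1 (*Slc2a1*, a difference of -9.92 points, which was -1.24 without bone 2 and -25.0 without osteoblasts 1), and no adjusted p was below 0.914. *Bnip3* had no named partner here.

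**Figure D4:**
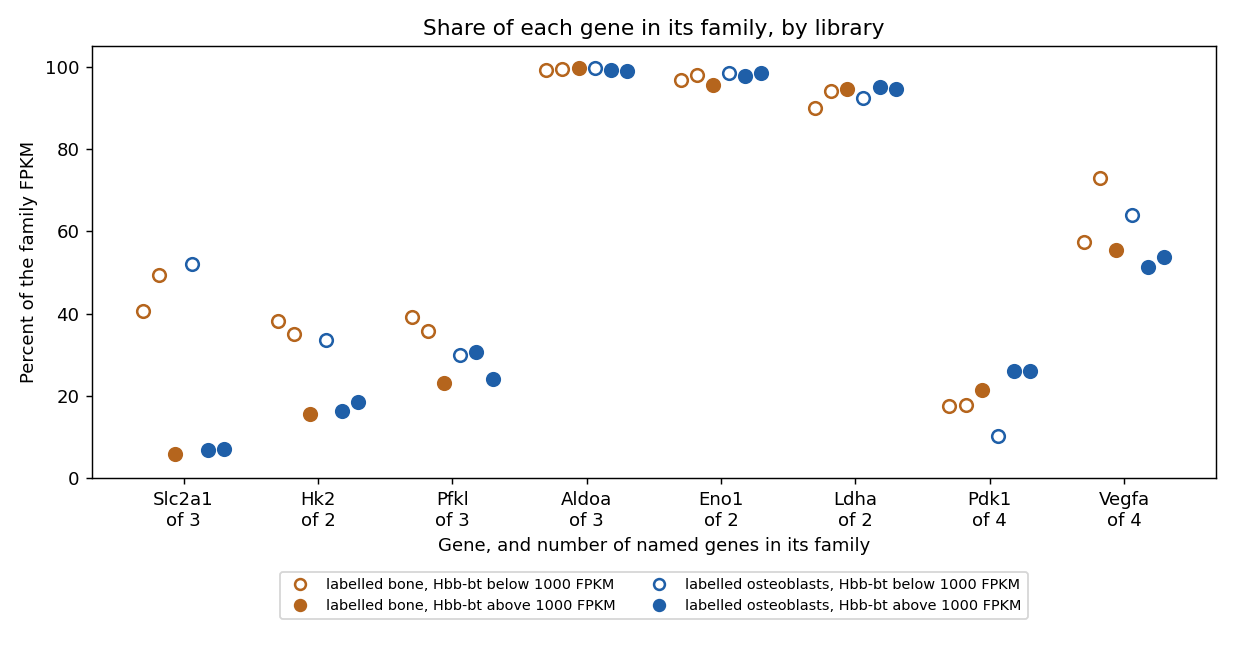
Percent of the FPKM of its named family that each gene made up in each library, by label (colour) and *Hbb-bt* (filled, above 1000 FPKM). The filled symbols are all below the open ones for *Slc2a1* (5.95% to 7.09%), *Hk2* (15.6% to 18.6%) and *Vegfa*, and all above them for *Pdk1* and *Ldha*. *Aldoa*, *Eno1* and *Ldha* stay at 90.0% or more.

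Among the other glycolytic enzymes and transporters, 16 of 28 could be tested in limma, 0 rose and 0 fell between the labels, and their median log2 difference was 0.35 against 0.12 over all genes (-0.24 without bone 2 and 0.96 without bone 3). Of the 16, 11 had their 3 highest FPKM in the libraries with *Hbb-bt* above 1000 (38.4% of all genes), and the same 11 after scaling to the 75th percentile (37.1%). Scaled to the sum of named genes, 8 of the 16 had this order (21.4% of all genes), and 8 without globins in that sum (23.6%). *Bpgm*, the enzyme that makes the regulator of hemoglobin 2,3-bisphosphoglycerate in red cells, was at 8.94, 3.93 and 141 FPKM in bone and 3.87, 164 and 218 in osteoblasts. *Pklr*, the pyruvate kinase of liver and red cells, was listed at 0 in bone 1, bone 2 and osteoblasts 1 and at 15.7, 14.2 and 16.1 FPKM in bone 3, osteoblasts 2 and osteoblasts 3. Erythroid marker sums were 35852 to 50353 FPKM in these last 3 libraries and 3.53 to 7.29 in the others. By their mean over the 6 libraries *Gpi1*, *Tpi1*, *Bpgm* and *Pgam1* were the highest of the list, though *Bpgm* was below *Hk3* and *Pfkp* in bone 1, bone 2 and osteoblasts 1. *Gpi1* and *Tpi1*, which interconvert hexose phosphates and triose phosphates, were at 23.9 to 118 and 27.7 to 86.3 FPKM. *Pgam1*, the mutase between *Pgk1* and *Eno1*, was at 72.2, 37.1 and 40.9 FPKM in bone and 47.4, 45.4 and 44.3 in osteoblasts, with its high value in bone 1 as for *Pgk1*. *Gapdh* was at only 6.19 to 20.3 FPKM, and since this gene has many processed copies its level is uncertain. *Hk1*, *Pkm*, *Eno3* and the *Pfkfb2*, *Pfkfb3* and *Pfkfb4* genes carried no feature of their own name and were not analysed here.

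For pyruvate dehydrogenase and its regulators, 11 of 12 genes were tested, 0 rose and 0 fell, and the median log2 difference was -0.07. *Pdha1*, the catalytic subunit that *Pdk1* inhibits, was at 47.7, 23.2 and 15.1 FPKM in bone and at 26.3, 16.7 and 18.8 in osteoblasts. Set beside it, *Ldha* was 2.87, 3.42 and 12.2 times *Pdha1* in bone and 3.62, 9.88 and 8.84 times in osteoblasts. The partner subunit *Pdhb* was at 21.2, 9.86 and 21.8 FPKM in bone and 13.8, 21.6 and 22.8 in osteoblasts. *Pdk3* was at 6.04 to 15.0 FPKM, *Pdk2* at 1.64 to 10.4 and the pyruvate carrier *Mpc1* at 2.98 to 16.4. Respiratory chain subunits gave 16 of 18 tested, 0 rose, 0 fell and a median of 0.24 (-0.12 to 0.49 on leaving out each library). Of these 16, 10 had their 3 highest FPKM in the libraries with *Hbb-bt* above 1000 (38.4% of all genes). Scaled to the 75th percentile the count was 10 (37.1%). Scaled to the sum of named genes it was 3 (21.4%), and without globins in that sum 5 (23.6%). *Atp5b*, *Cox4i1* and *Atp5a1* were the highest at 113 to 396, 108 to 365 and 83.5 to 190 FPKM, and the muscle isoforms *Cox6a2* and *Cox7a1* reached 26.4 and 26.8 FPKM in bone 3.

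The oxygen-sensing genes gave 8 of 12 tested, with 0 higher, 0 lower and a median log2 difference of 0.15. *Epas1* (HIF-2α) was at 16.7, 4.65 and 8.38 FPKM in bone and 15.4, 7.62 and 8.46 in osteoblasts. *Arnt*, the shared partner subunit, was at 4.43 to 9.64 FPKM, and the inhibitor *Cited2* at 7.66 to 23.1. *Egln3*, a HIF prolyl hydroxylase, was at 1.60 to 2.21 FPKM in the libraries with *Hbb-bt* above 1000 and at 0.056 to 0.532 in the others. The feature named *Hif1a* was at 3.17 to 41.6 FPKM, but it takes in *Snapc1* and reaches 41412 bases past the RefSeq gene, so it is no measure of *Hif1a* alone.

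Other hypoxia-inducible genes gave 23 of 28 tested, 0 higher, 0 lower and a median log2 difference of -0.10. The feature named *Epo* takes in *Gigyf1*, *Gnb2* and *Pop7*, and no level is given for it. Over the 22 genes without it the median was -0.14. On FPKM 8 of the 22 had their 3 lowest values in the libraries with *Hbb-bt* above 1000 (16.9% of all genes) and 6, among them *Ndrg1* and *Kdm3a*, their 3 highest (38.4%). After scaling to the 75th percentile these counts were 10 (32.1%) and 6 (37.1%). *Lox*, the enzyme that cross-links collagen, was at 503, 304 and 8.13 FPKM in bone and 287, 7.07 and 12.2 in osteoblasts. *P4ha1*, a collagen prolyl hydroxylase, was at 74.4, 42.3 and 7.84 in bone and 47.7, 9.76 and 9.85 in osteoblasts. Both were high where *Hbb-bt* was low. The 7 stromal and fibroblast markers were so in sum (1405 to 2630 against 311 to 528 FPKM). Within that sum *Lum* (1.18 to 5.55 against 16.5 to 17.4) and *Thy1* (1.52 to 4.04 against 3.46 to 4.62) were not. The part of these markers was not tested. *Hmox1*, which degrades heme, was at 70.3 to 155 FPKM with no such order.

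For the VEGF ligands and receptors, 7 of 9 genes were tested with 0 higher, 0 lower and a median log2 difference of 0.27 (-0.18 to 0.76 on leaving out each library, negative without bone 2). *Kdr*, the main receptor of *Vegfa* on endothelial cells, was at 0.229, 0.026 and 5.53 FPKM in bone and 0.187, 6.98 and 7.99 in osteoblasts. *Flt4*, the receptor of lymphatic vessels and fenestrated endothelium, was at 6.55 to 8.53 FPKM in the libraries with *Hbb-bt* above 1000 and at 0.022 to 0.157 in the others. The co-receptors had the reverse order, *Nrp1* at 81.1, 38.7 and 10.3 FPKM in bone and 48.5, 11.2 and 11.2 in osteoblasts, and *Nrp2* at 43.3 to 89.4 where *Hbb-bt* was low and 26.6 to 30.6 where it was high. The *Nrp2* feature reaches 18136 bases past the RefSeq gene. The ligand *Vegfa* itself was at 7.80 to 15.3 FPKM with no such order. Endothelial markers summed to 33.5 to 47.1 FPKM in the libraries with *Hbb-bt* above 1000 and to 0.273 to 5.04 in the others, and their part was not tested. That sum includes *Kdr* itself, so it is not separate from the values above. It also includes *Pecam1*, whose feature reaches 35347 bases past the RefSeq gene.

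**Figure D5:**
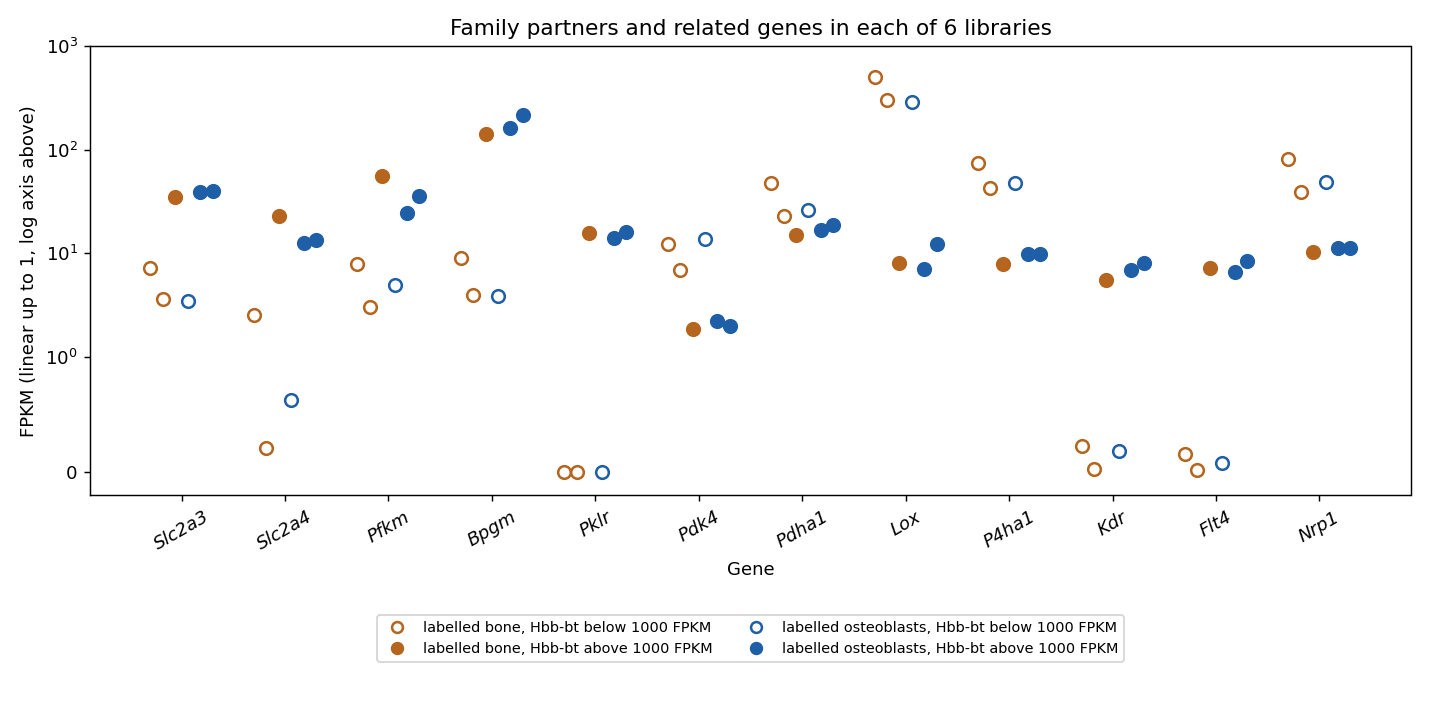
FPKM (linear up to 1, log axis above) of family partners and related genes in each library, by label (colour) and *Hbb-bt* (filled, above 1000 FPKM). *Bpgm* is at 141 to 218 FPKM in the filled symbols and 3.87 to 8.94 in the open ones, and *Lox* at 7.07 to 12.2 against 287 to 503.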

How the data were processed

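The 6 RNA-seq libraries (3 of bone, 3 of osteoblasts by label) were used. Per the labels, the authors ran HISAT2 2.0.5 for alignment (GRCm38), SAMtools 1.7 and StringTie 1.3.3. They deposited, per feature, the coverage (signal, mean reads per base), the FPKM and the TPM. The tables hold no counts. Features were matched by gene name and FPKM summed by name. Depth was read from the ratio of the deposited coverage to FPKM. Coordinates are those of the tables, and promoters those of RefSeq GRCm38.p6.

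Genes averaging at least 1 FPKM over the 6 libraries were fitted on log2(FPKM + 1) with limma 3.58.1 in R 4.3.3 (lmFit, eBayes with a trend) and adjusted by Benjamini-Hochberg at 0.05. The pseudocount of 1 understates changes of low genes. The fit was run on simulated data with independent noise smaller than the spread within labels here (median SD 0.59 on the log2 scale). That run does not measure the power of the test on these libraries. Family shares were compared by exact permutation tests. The rest used pandas 2.3.3 and scipy 1.17.1 in Python 3.11.15, and matplotlib 3.10.9.

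The members and lists were chosen with earlier results of these data known. Named are the members, their family partners, the 4 highest and 3 most variable genes of each list, markers and the 3 most similar genes, of which some are left out. *Gapdh*, *Ndrg1*, *Kdm3a*, *Ibsp*, the ratios and the markers at 0 were named after their values were seen. The alternatives were other pseudocounts, filters, units and scalings, no trend, the replicate number as a block, and leaving out each library.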

Additional observations from a re-analysis of the deposited data

How the results depend on the processing

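No member passed the threshold in limma in any of the alternatives run, and the smallest adjusted p of a member was 0.821. The number of genes called between the labels, 0 as reported, stayed at 0 under the other pseudocount, filters, unit, scalings and variance model. With the replicate number as a block it was 49 (46 higher, 3 lower), and leaving out each library gave 0 to 300, with 77 without bone 3 and 300 without osteoblasts 1. Same-numbered libraries correlated at 0.841, -0.747 and 0.83 in their deviations from the label means. Over all pairs of a bone and an osteoblast library, r was positive only where *Hbb-bt* was above 1000 FPKM in both or in neither. These values therefore cannot tell whether libraries of the same number came from the same mouse. No member was called under the block. The family shares cannot be called under it, since sign flips over 3 pairs give no p below 0.25. The cause of these counts was not tested.

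The signs of the small log2 differences were not stable. *Aldoa* was at -0.0528 scaled to the sum of named genes and -0.18 after quantile normalization. *Ldha* was at -0.0639 and -0.0923 under these and -0.0103 with globins left out of the sum. *Pdk1* was at -0.0165 scaled to that sum, and *Pgk1* at 0.0077 when summed with *Pgk1-rs7*. The sums with copies, the hypoxia list without *Epo* and the library orders under other scalings were chosen after seeing the data. Leaving out each library moved the log2 difference between -0.24 and 0.13 for *Slc2a1*, -0.46 and 0.0468 for *Hk2*, -0.49 and 0.31 for *Pfkl*, -0.36 and 0.55 for *Aldoa*, -0.22 and 0.29 for *Pgk1*, -0.12 and 0.51 for *Eno1*, -0.21 and 0.40 for *Ldha*, -0.10 and 0.55 for *Pdk1*, -0.63 and 0.0805 for *Bnip3*, and -0.38 and 0.0890 for *Vegfa*. The difference in family share ran from -0.258 to 0.0954 percentage points for *Aldoa*, -0.292 to 2.04 for *Ldha*, -0.792 to 7.13 for *Pdk1*, -25.0 to -1.24 for *Slc2a1*, -13.8 to -2.53 for *Hk2*, 0.836 to 1.96 for *Eno1*, -9.25 to -1.22 for *Pfkl* and -9.43 to -0.106 for *Vegfa*. List medians ran from -0.29 to 0.18 for the members, -0.24 to 0.11 for pyruvate dehydrogenase, -0.32 to -0.02 for the hypoxia-inducible genes and -0.12 to 0.31 for the oxygen sensors. The tables hold no counts, so intervals for single FPKM could not be given, and depth limits only genes near 0.133 to 0.221 FPKM.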
